A study of Mus musculus with 3 samples.

Results

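The 10 genes described here encode secreted cytokines of T cells: Ifng, Il2, Tnf, Il21, Il10, Csf2, Il4, Il17a, Lta and Tgfb1. They were taken by name from the 18029 genes of the count table, and all 10 were found in it. Their unique molecular identifiers (UMIs), each a tag on 1 captured RNA molecule, were summed over the donor CD4+ and CD8+ T cells of each pool of mice and over each cluster of cells that the authors defined. In the study, irradiated B6D2F1 mice received B6 bone marrow with B6 T cells and a small number of TEa cells, which are CD4+ T cells of a Rag1-deficient, CD45.1 line with 1 transgenic receptor for a recipient alloantigen. The recipients were given saline, lower dose cyclosporine (CSA, 5 mg/kg) or higher dose CSA (50 mg/kg) every day from day 0 to day 6, and their spleens were taken on day 7. All groups carried the same graft, no syngeneic control was analysed here, and age and sex are not given in the sources used here. Spleens of 6 mice per group were combined by 2 into 3 hashtagged pools, and sorted CD4+ and CD8+ T cells of the 3 pools were loaded together in 1 droplet capture per group. A treatment and its capture therefore cannot be told apart, and the p-values measure only the spread between the 3 pools of a capture.

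T cell receptor signalling raises calcium, which activates the phosphatase calcineurin, and calcineurin lets the nuclear factor of activated T cells (NFAT) enter the nucleus, where it acts with AP-1 and NF-kB at cytokine genes. CSA, bound to cyclophilin, inhibits calcineurin. In acute graft-versus-host disease, donor T cells that recognise recipient antigen release these cytokines, which act on other T cells, on myeloid cells and on the tissues of the recipient.

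The genes lie on 6 chromosomes of GRCm38, as annotated in GENCODE M21: Il2 (ENSMUSG00000027720) and Il21 (ENSMUSG00000027718) on chromosome 3, Tnf (ENSMUSG00000024401) and Lta (ENSMUSG00000024402) next to each other on chromosome 17, Csf2 (ENSMUSG00000018916) and Il4 (ENSMUSG00000000869) on chromosome 11, Il10 (ENSMUSG00000016529) and Il17a (ENSMUSG00000025929) on chromosome 1, Ifng (ENSMUSG00000055170) on chromosome 10 and Tgfb1 (ENSMUSG00000002603) on chromosome 7. Annotated genes overlap Ifng (Gm49751), Il2 (Adad1), Il21 (Gm12534), Csf2 (Gm12223) and Lta (Mir6974), and whether the counting used strand is not given in the sources used here. The promoter table of RefSeq (GRCm38.p6) held 9 of the 10 genes, all but Il10. The 250 bases upstream of the start site are printed 5′ to 3′ on the gene's own strand for 8 genes, to show where the letters that NFAT prefers stand: 5 that were lower in CD4+ T cells with higher dose CSA, the textbook NFAT target Il2, and Lta and Tgfb1, which were higher under the scaling described with them. Capitals mark the NFAT core, GGAAA or its reverse complement TTTCC. The windows of Il17a, also called lower there, and of another Il4 start site are not printed, and they hold no core.
Il21: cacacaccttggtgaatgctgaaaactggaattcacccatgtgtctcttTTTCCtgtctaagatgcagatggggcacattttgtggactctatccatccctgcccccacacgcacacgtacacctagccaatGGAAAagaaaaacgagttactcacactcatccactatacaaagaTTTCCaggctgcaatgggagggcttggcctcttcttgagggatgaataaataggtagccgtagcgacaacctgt
Il2: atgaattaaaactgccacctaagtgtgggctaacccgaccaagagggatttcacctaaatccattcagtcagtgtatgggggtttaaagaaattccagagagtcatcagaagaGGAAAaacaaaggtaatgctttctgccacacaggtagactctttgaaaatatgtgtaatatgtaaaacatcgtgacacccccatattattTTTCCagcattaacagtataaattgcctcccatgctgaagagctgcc
Csf2: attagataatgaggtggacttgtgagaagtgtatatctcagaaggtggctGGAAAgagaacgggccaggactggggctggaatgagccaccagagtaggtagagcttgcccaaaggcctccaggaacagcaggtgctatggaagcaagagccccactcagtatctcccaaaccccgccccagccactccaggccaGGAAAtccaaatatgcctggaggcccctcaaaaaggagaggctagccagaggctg
Ifng: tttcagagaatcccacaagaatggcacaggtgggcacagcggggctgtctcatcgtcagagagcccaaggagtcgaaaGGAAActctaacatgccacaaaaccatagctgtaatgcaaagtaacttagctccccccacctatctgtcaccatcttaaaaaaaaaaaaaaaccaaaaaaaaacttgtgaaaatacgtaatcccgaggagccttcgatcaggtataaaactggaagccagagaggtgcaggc
Tnf: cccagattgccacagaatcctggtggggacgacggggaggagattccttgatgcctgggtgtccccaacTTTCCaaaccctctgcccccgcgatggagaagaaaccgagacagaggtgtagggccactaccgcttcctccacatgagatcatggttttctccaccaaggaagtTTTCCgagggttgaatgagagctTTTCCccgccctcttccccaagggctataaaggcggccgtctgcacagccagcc
Il4: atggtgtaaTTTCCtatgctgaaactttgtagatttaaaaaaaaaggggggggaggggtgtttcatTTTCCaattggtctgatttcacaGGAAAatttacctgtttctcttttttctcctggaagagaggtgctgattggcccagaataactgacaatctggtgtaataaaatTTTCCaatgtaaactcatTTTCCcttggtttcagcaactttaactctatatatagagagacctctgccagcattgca
Lta: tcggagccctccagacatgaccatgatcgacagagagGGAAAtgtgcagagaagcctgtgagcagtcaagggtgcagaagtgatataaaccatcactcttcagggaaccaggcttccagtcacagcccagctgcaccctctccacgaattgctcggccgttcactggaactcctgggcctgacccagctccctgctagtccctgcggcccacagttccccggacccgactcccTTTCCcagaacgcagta
Tgfb1: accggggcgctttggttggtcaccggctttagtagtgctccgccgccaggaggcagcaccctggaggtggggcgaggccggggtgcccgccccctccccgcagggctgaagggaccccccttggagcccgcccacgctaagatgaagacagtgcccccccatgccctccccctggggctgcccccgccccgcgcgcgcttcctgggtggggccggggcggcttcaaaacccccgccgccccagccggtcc
These windows are chr3:37232637-37232886 (minus strand) for Il21, chr3:37125955-37126204 (minus strand) for Il2, chr11:54249900-54250149 (minus strand) for Csf2, chr10:118440796-118441045 (plus strand) for Ifng, chr17:35202008-35202257 (minus strand) for Tnf, chr11:53618666-53618915 (minus strand) for Il4, chr17:35205352-35205601 (minus strand) for Lta and chr7:25686752-25687001 (plus strand) for Tgfb1.

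The NFAT core was found 5 times before this start site of Il4, 3 times before Il21 and Tnf, 2 times before Il2, Csf2 and Lta and 1 time before Ifng. It was not in the windows of Tgfb1 and Il17a, nor in the window of the other Il4 start site of the table (chr11:53617339-53617588, minus strand). Of the 32851 promoters in the table, 55.6% held at least 1 core, 21.4% at least 2, 6.39% at least 3 and 0.390% at least 5, so that 1 core is common among promoters of this length. In the window of Il21 the cores began at positions -201, -118 and -74 from the start site, and in that of Il2 at -137 and -47. The NF-kB letters (GGG and CC with 5 free bases between them), searched on both strands, stood in the windows of Il2, Tnf, Il21 and Il17a 1 time each, in that of Lta 2 times (overlapping) and in that of Tgfb1 7 times (3 of them overlapping), against 45.8% of all promoters with at least 1. The AP-1 letters TGANTCA stood only in the window of Il17a, against 6.75% of all promoters. TATAAA was found before Ifng, Il2, Tnf, Il17a and Lta, against 12.4% of all promoters. The Csf2 window begins at 54249900, while GENCODE M21 places the 5′ end of this minus strand gene at 54249667. Its matches therefore refer to a RefSeq start site upstream of the GENCODE one. These are matches of letters, and binding was not measured.

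The sums covered 10091 CD4+ T cells without the TEa mark and 10833 CD8+ T cells. A pool held between 875 and 1479 CD4+ T cells with 3994968 to 7592334 UMIs, and between 692 and 1615 CD8+ T cells with 4392100 to 11454636 UMIs. Median UMIs per cell were 3097 with saline, 4396 with lower dose and 5979.5 with higher dose CSA in CD4+ T cells, and 4108, 6121.5 and 7183 in CD8+ T cells, so a share of cells with a UMI follows depth as well as expression. Of the 7 T cell markers, Cd8a had no UMI in any CD4+ pool and Cd4 none in any CD8+ pool, and Cd3e was found in all. Both lineages shared a capture, and how the authors assigned cells to a lineage was not examined here. A split of cells by Cd4 and Cd8a counts would fix such zeros in advance, so they are not read as a sign of purity. Cd8b1, which encodes the other chain of CD8, was found in every CD4+ pool, at 20.8 to 153 counts per 1000000 UMIs (CPM), against 1265 to 2856 CPM in the CD8+ pools. The summed level of 6 B cell markers in CD8+ T cells was 23.4 CPM with saline (range over pools 21.4 to 26.1), 44.4 with lower dose CSA (21.4 to 80.7) and 269 with higher dose CSA (200 to 334), with Pax5 at 0 with higher dose CSA. The same sums in CD4+ T cells were 7.39, 9.76 and 23.1 CPM. The summed level of 4 NK cell markers was 6.40, 4.25 and 0.872 CPM in CD4+ and 6.90, 9.27 and 1.94 CPM in CD8+ T cells, in the same order of groups. Sums over 5 erythroid markers were 8.17, 6.07 and 31.0 CPM in CD4+ and 8.96, 6.80 and 33.1 CPM in CD8+ T cells, those over 7 myeloid markers 113, 168 and 101 CPM and 145, 152 and 148 CPM, and those over 4 dendritic cell markers 11.4, 6.58 and 17.2 CPM and 106, 58.6 and 130.4 CPM, with Flt3 at 0 throughout. Sums over 3 cycling markers went from 1512 to 946 and 842 CPM in CD4+ and from 2455 to 1331 and 861 CPM in CD8+ T cells. The part of these cells in the values of the cytokine genes was not tested. In all, 218 cell barcodes were found in more than 1 capture, and a second hashtag reached at least 0.5 of the strongest in between 116 and 242 cells of a lineage and group, nearly all of them in pools 2 and 3.

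Levels of a pool are CPM after scaling by the trimmed mean of M values (TMM), a method that sets the bulk of genes equal between pools. Scaling by library size alone placed the median of all genes at -0.37 (lower dose) and -0.45 (higher dose) on the log2 scale against saline in CD4+ T cells and at -0.43 and -0.53 in CD8+ T cells, and where it turned the direction of 1 of the 10 genes against saline over a lineage, both values are given. Differences between groups are log2 changes ± SE, with the change from edgeR. The SE was derived as the size of the change divided by the square root of the F statistic of its quasi-likelihood test. The p-values of that test were adjusted over all genes by the Benjamini-Hochberg method, and a gene is called at an adjusted p below 0.05. In such sums, fewer cells of a type and less RNA per cell cannot be told apart.

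In CD4+ T cells Il21, Csf2, Ifng and Tnf were lower with higher dose CSA, while with lower dose CSA Il2 and Csf2 were higher and Il21 was lower, under both scalings. With lower dose CSA, 6 were called higher than with saline (Il17a, Il2, Csf2, Il4, Lta and Tgfb1) and 1 lower (Il21), against 51.7% of the 10568 genes tested called in either direction, 26.1% higher and 25.6% lower. With higher dose CSA, 2 were called higher (Lta and Tgfb1) and 6 lower (Il21, Csf2, Il4, Ifng, Tnf and Il17a), against 70.5% of genes called, 34.7% higher and 35.8% lower. Between the doses, 7 were lower with higher dose CSA and none higher, against 41.2% called and 21.3% lower. Under library size scaling the members split into 3 higher and 4 lower with lower dose CSA (8.76% of genes higher and 54.1% lower), 0 and 8 with higher dose CSA (15.1% and 59.0%), and 0 and 7 between the doses (13.5% and 27.2%). Of the 10 genes, 7 passed the filter on low counts in CD8+ T cells, and Il2, Il4 and Il17a did not.

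**Figure D1:**
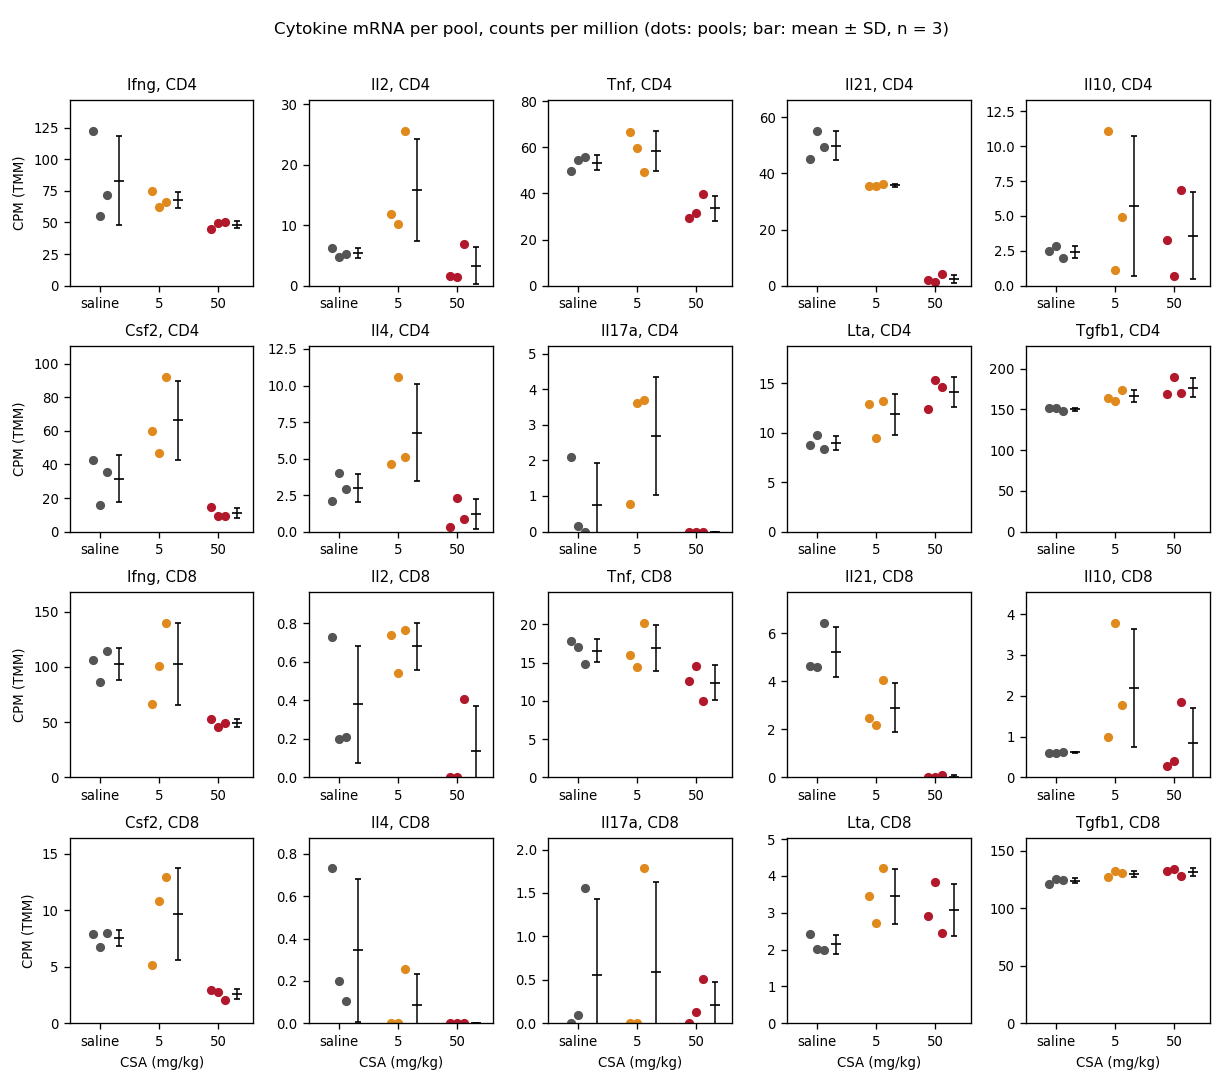
Level of each of the 10 genes (TMM-scaled CPM) by treatment in CD4+ and CD8+ T cells, with a dot for each of the 3 pools of a group and bars for their mean ± SD. Il21 fell at higher dose CSA in both lineages, and Csf2 and Il2 in CD4+ T cells were highest at the lower dose.

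Il2 encodes the main growth factor of activated T cells and is the classical target of calcineurin inhibition. Its level in CD4+ T cells was 6.27, 4.74 and 5.18 CPM in the 3 saline pools, 11.9, 10.1 and 25.6 with lower dose CSA and 1.55, 1.5 and 6.86 with higher dose CSA. All lower dose pools stood above all saline pools, and the higher dose pools overlapped with saline. Il2 was higher with lower dose CSA than with saline by 1.63 ± 0.36 (edgeR adjusted p = 7.06e-04), and without pool 3 of the lower dose, where 1 cell held 75 of 146 Il2 UMIs, by 1.04 (adjusted p = 0.0323). Against saline, higher dose CSA changed Il2 by -0.63 ± 0.46 (edgeR adjusted p = 0.228), which missed the threshold. In pool 3 of the higher dose 1 cell held 27 of 46 Il2 UMIs. Without this pool the change was -1.79 (adjusted p = 0.00246), and without the cell with most Il2 UMIs in each pool, -1.14 (adjusted p = 0.00795). Between the doses Il2 fell by 2.26 ± 0.39 on the log2 scale at the higher dose (edgeR adjusted p = 7.82e-05; -3.42 without the named pool). CD8+ T cells had 6, 2 and 2 Il2 UMIs in the saline pools, 3, 3 and 6 with lower dose and 0, 0 and 4 with higher dose CSA, too few for the test.

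Il21 encodes a helper cytokine that follicular helper and other CD4+ T cells release and that acts on B cells and CD8+ T cells. In CD4+ T cells its level was 44.9, 55.1 and 49.5 CPM with saline, 35.3, 35.6 and 36.1 with lower dose CSA and 1.89, 1.33 and 4.17 with higher dose CSA, and the groups did not overlap. The fall was 0.49 ± 0.11 on the log2 scale at the lower dose (edgeR adjusted p = 9.82e-04) and 4.30 ± 0.18 at the higher dose (adjusted p = 8.08e-15). Library size scaling gave -0.85 and -4.73, and over cells outside the cycling clusters the lower dose change was -0.37 (adjusted p = 0.0556), short of the threshold. CD8+ T cells had 38, 46 and 62 Il21 UMIs in the saline pools, 10, 12 and 32 with lower dose CSA and 0, 0 and 1 with higher dose CSA, again without overlap. The summed level of 5 follicular helper markers moved with Il21 in CD4+ T cells, at 969, 674 and 180.2 CPM, and the part of those cells was not tested. Il21 in CD8+ T cells changed at the lower dose by -0.78 ± 0.27 (edgeR adjusted p = 0.0178), a call that was lost without pool 1 (-0.69) or pool 2 (-0.59) of the lower dose, without saline pool 3 (-0.60), in DESeq2 and outside the cycling clusters (-0.40), while without pool 3 of the lower dose it was -1.19. At the higher dose, 1 UMI against 146 gave a 129-fold lower TMM-scaled level (95% counting interval 22.8 to 5132; edgeR adjusted p = 6.77e-09).

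Il4, a cytokine of T helper 2 and follicular helper cells that drives antibody class switching, was low throughout. Its CD4+ pools stood at 2.09, 4.0 and 2.89 CPM with saline, 4.64, 10.6 and 5.09 with lower dose and 0.344, 2.33 and 0.894 with higher dose CSA. Lower dose pools lay above the other groups, and the higher dose pools overlapped with saline. The change was 1.13 ± 0.37 at the lower dose (edgeR adjusted p = 0.0138), and the call was lost without pool 2 of the lower dose (0.67), without saline pool 1 (0.96), under library size scaling (0.77) and without the top cell of each pool (0.94). At the higher dose it was -1.36 ± 0.49 (edgeR adjusted p = 0.0180), lost without higher dose pool 1 (-0.95), higher dose pool 3 (-1.17) or saline pool 2 (-1.09) and -2.23 without higher dose pool 2. CD8+ T cells had 6, 2 and 1 Il4 UMIs with saline, 0, 0 and 2 with lower dose and 0, 0 and 0 with higher dose CSA. With 3 counts set for the group at 0, the higher dose level was 2.65-fold below saline. The saline counts were taken as exact, so this fold is not a lower limit.

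Ifng encodes interferon gamma, which activates macrophages and raises antigen presentation. Its level in CD4+ T cells was 122, 54.8 and 72.1 CPM in the saline pools, 74.8, 62.5 and 66.3 with lower dose CSA and 44.9, 49.5 and 50.7 with higher dose CSA. All higher dose pools lay below all pools of the other groups, while lower dose and saline pools overlapped. The first saline pool stood apart, with 183 of its 585 Ifng UMIs in 1 cell. Higher dose CSA changed Ifng by -0.74 ± 0.18 (edgeR adjusted p = 8.63e-04), and by -0.39 without that pool (adjusted p = 0.00232). The lower dose change was -0.26 ± 0.18 (edgeR adjusted p = 0.229), not called, but 0.09 without saline pool 1 (adjusted p = 0.479), -0.50 without saline pool 2 (adjusted p = 0.00801) and -0.62 under library size scaling (adjusted p = 0.00481). Between the doses it was -0.48 ± 0.19 (edgeR adjusted p = 0.0449), a call that held in 2 of the 9 fits without 1 pool and not in DESeq2.

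Ifng in CD8+ T cells stood at 107, 86.7 and 115 CPM with saline, 66.5, 101 and 140.2 with lower dose and 53.0, 45.9 and 49.0 with higher dose CSA. The higher dose pools lay below every other pool, and the lower dose pools spread on both sides of saline. The higher dose change was -1.06 ± 0.17 (edgeR adjusted p = 1.58e-05), and the lower dose change 0.05 ± 0.16 (adjusted p = 0.806), which turned to -0.37 under library size scaling (adjusted p = 0.0463) and lay between -0.28 and 0.25 without 1 pool. In the third lower dose pool 1 cell held 290 of 1101 Ifng UMIs, and in the third saline pool 1 cell held 351 of 1103.

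Tnf encodes tumour necrosis factor, a cytokine that kills or inflames target tissue. Tnf in CD4+ T cells stood at 49.5, 54.5 and 55.8 CPM with saline, 66.5, 59.5 and 49.3 with lower dose and 29.4, 31.5 and 39.8 with higher dose CSA. The higher dose pools lay below all others. Higher dose CSA changed Tnf by -0.66 ± 0.11 (edgeR adjusted p = 1.23e-05; -1.10 under library size scaling), and lower dose CSA by 0.11 ± 0.10 (adjusted p = 0.393), which turned to -0.25 under library size scaling (adjusted p = 0.0472). Levels in CD8+ T cells were 17.8, 17.1 and 14.9 CPM with saline, 16.0, 14.4 and 20.2 with lower dose and 12.6, 14.6 and 10.00 with higher dose CSA, and the higher dose pools lay just below saline and overlapped with the lower dose. That change was -0.43 ± 0.14 (edgeR adjusted p = 0.0101), lost without higher dose pool 3 (-0.28, adjusted p = 0.0839), -0.96 under library size scaling and -0.72 outside the cycling clusters. At the lower dose it was 0.06 ± 0.14 (adjusted p = 0.730 in edgeR), and -0.36 under library size scaling and -0.13 without lower dose pool 3.

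Csf2 encodes GM-CSF, which recruits and activates myeloid cells. In CD4+ T cells its level was 42.6, 15.7 and 35.8 CPM with saline, 59.8, 46.9 and 92.2 with lower dose and 14.8, 9.33 and 9.24 with higher dose CSA, and no group overlapped with another. Csf2 rose by 1.15 ± 0.24 on the log2 scale at the lower dose (edgeR adjusted p = 3.59e-04) and fell by 1.46 ± 0.31 at the higher dose (adjusted p = 3.06e-04), and both calls held under library size scaling (0.79 and -1.90). CD8+ T cells had 7.92, 6.73 and 8.01 CPM with saline, 5.17, 10.8 and 13.0 with lower dose and 2.91, 2.78 and 2.04 with higher dose CSA. The higher dose pools lay below all others, with a change of -1.57 ± 0.27 (edgeR adjusted p = 3.93e-05). The lower dose change of 0.44 ± 0.22 missed the threshold (adjusted p = 0.0913 in edgeR) and passed it without lower dose pool 1 (0.67, adjusted p = 0.00313).

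Lta encodes lymphotoxin alpha, a relative of tumour necrosis factor that shapes lymphoid tissue. Lta in CD4+ T cells stood at 8.78, 9.77 and 8.38 CPM with saline, 12.9, 9.47 and 13.2 with lower dose and 12.4, 15.3 and 14.6 with higher dose CSA. The higher dose pools lay above all saline pools. The higher dose change was 0.65 ± 0.15 (edgeR adjusted p = 7.49e-04), and 0.21 under library size scaling (adjusted p = 0.218), where it missed the threshold. At the lower dose, 0.40 ± 0.17 (edgeR adjusted p = 0.0486) was called in 3 of the 9 fits without 1 pool and lay at 0.30 without lower dose pool 3, 0.35 without lower dose pool 1, 0.39 without saline pool 1, 0.35 without saline pool 3, 0.40 and 0.40 without higher dose pools 2 and 3, and 0.04 under library size scaling. Lta in CD8+ T cells stood at 2.44, 2.01 and 1.98 CPM with saline, 3.45, 2.71 and 4.20 with lower dose and 2.91, 3.85 and 2.45 with higher dose CSA, and saline pools lay below all others. The lower dose change of 0.73 ± 0.27 (edgeR adjusted p = 0.0270) was lost without lower dose pool 3 (0.50), saline pool 2 (0.68) or saline pool 3 (0.67), and it was 0.31 under library size scaling. The higher dose change of 0.51 ± 0.26 (edgeR adjusted p = 0.0864) missed the threshold, passed it without higher dose pool 3 (0.67) and turned to -0.02 under library size scaling.

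Il17a encodes the cytokine of Th17 cells. CD4+ T cells held 10, 1 and 0 UMIs in the saline pools, 3, 16 and 21 with lower dose and 0, 0 and 0 with higher dose CSA. Saline pools overlapped with those of each dose. With no UMI in 3064 cells, the higher dose group was set to 3 counts. That placed it 3.75-fold below saline and 17.6-fold below the lower dose. The counts of the other groups were taken as exact, so these folds are not lower limits. The call against saline (edgeR adjusted p = 0.0326) was lost without saline pool 1, which held 10 of 11 UMIs (adjusted p = 0.353), without each of the higher dose pools (adjusted p = 0.0545, 0.0604 and 0.0640) and in DESeq2. The lower dose change of 2.16 ± 0.72 (edgeR adjusted p = 0.0176) was 1.95 without lower dose pool 2, 1.84 without pool 3, 1.62 without saline pool 2 and 1.51 without saline pool 3, all no longer called, and 4.87 without saline pool 1. The summed level of 4 Th17 markers in CD4+ T cells was 24.3 CPM with saline, 14.7 with lower dose and 1.27 with higher dose CSA. Among CD8+ T cells 1 cell held 14 of the 16 Il17a UMIs with saline, and 1 held 13 of 14 with lower dose CSA.

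Il10 and Tgfb1 encode the regulatory cytokines of the list, which restrain T cells and myeloid cells. Il10 in CD4+ T cells stood at 2.51, 2.81 and 1.98 CPM with saline, 11.1, 1.13 and 4.91 with lower dose and 3.27, 0.667 and 6.86 with higher dose CSA, and its pools overlapped in every comparison. Its changes were 1.17 ± 0.58 and 0.60 ± 0.59 (edgeR adjusted p = 0.0972 and 0.373), and the lower dose change passed the threshold without lower dose pool 2 (1.63) or higher dose pool 2 (1.16) but was 0.40 (adjusted p = 0.629) without lower dose pool 1, where 1 cell held 29 of 43 Il10 UMIs. The higher dose change turned to -0.31 without higher dose pool 3. Il10 in CD8+ T cells was 0.609, 0.602 and 0.624 CPM with saline, 0.985, 3.79 and 1.78 with lower dose and 0.277, 0.398 and 1.84 with higher dose CSA. All lower dose pools lay above saline. That change was 1.84 ± 0.57 (edgeR adjusted p = 0.00962), but 1.27 without lower dose pool 2 (adjusted p = 0.108), and 13 of the 39 UMIs of the group came from 1 cell. The higher dose change there was 0.58 ± 0.64 (edgeR adjusted p = 0.417), and -0.82 without higher dose pool 3. Between the doses it was -1.26 ± 0.54 (edgeR adjusted p = 0.0704), and it was called without higher dose pool 3 (-2.66) or lower dose pool 1 (-1.51). The summed level of 4 regulatory T cell markers in CD4+ T cells was 336, 237 and 121 CPM, and its part in the Il10 values was not tested.

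Tgfb1 was found in more cells than the other genes. Its level in CD4+ T cells stood at 151, 151 and 148 CPM with saline, 164, 160.1 and 174 with lower dose and 169, 190.0 and 170.3 with higher dose CSA, and the saline pools lay below all others. The changes were 0.15 ± 0.05 and 0.23 ± 0.05 under TMM scaling (edgeR adjusted p = 0.0246 and 4.38e-04) but -0.21 and -0.21 under library size scaling, so that the direction rests on the scaling. The lower dose call was also lost without lower dose pool 3 (0.11) or saline pool 3 (0.14), outside the cycling clusters (0.12) and in DESeq2. Tgfb1 in CD8+ T cells stood at 122, 126 and 124 CPM with saline, 127, 132 and 131 with lower dose and 132, 134 and 128 with higher dose CSA. These changes of 0.07 ± 0.05 and 0.08 ± 0.04 were not called (edgeR adjusted p = 0.192 and 0.0969) and were -0.35 and -0.45 under library size scaling.

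**Figure D2:**
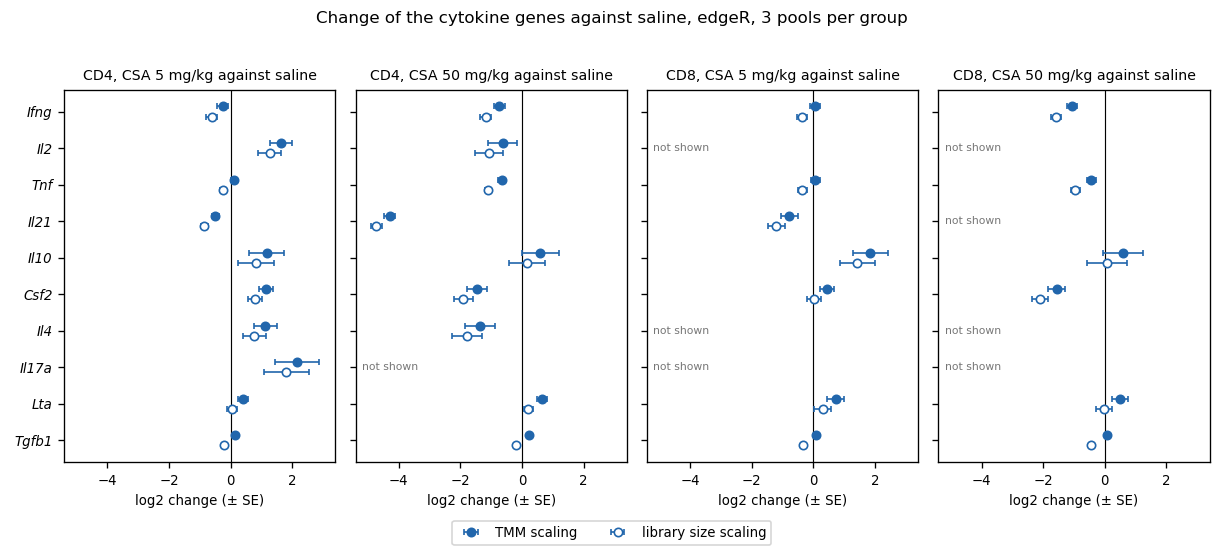
Log2 change ± SE of each gene against saline in CD4+ and CD8+ T cells at both doses (filled, TMM scaling; open, library size scaling); genes with under 4 UMIs in a group or not tested are not shown. Csf2 rises at the lower dose and falls at the higher dose in CD4+ T cells, and Tgfb1 lies on opposite sides of 0 under the 2 scalings.

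Over the 7 genes tested in CD8+ T cells, lower dose CSA gave 2 called higher (Il10 and Lta) and 1 lower (Il21), against 60.2% of the 10841 genes tested called, 29.9% higher and 30.3% lower. Higher dose CSA gave none higher and 4 lower (Il21, Csf2, Ifng and Tnf), against 74.0% called, 37.1% higher and 36.9% lower. Between the doses 4 (Il21, Csf2, Ifng and Tnf) were lower with higher dose CSA and none higher, against 41.0% called and 21.0% lower. Library size scaling gave 1 higher and 4 lower at the lower dose (10.9% and 57.8% of genes), 0 and 5 at the higher dose (15.6% and 62.7%), and 0 and 5 between the doses (12.1% and 30.6%). The change of Tnf between the doses was -0.50 ± 0.15 (edgeR adjusted p = 0.0140), and it was not called without higher dose pool 3 (-0.34) or lower dose pool 3 (-0.30).

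Whether a change differed between the lineages was tested as an interaction in 1 fit over both, with the pool as a block. None of the 10 genes was called at the lower dose, against 3.65% of the 11001 genes tested, and none at the higher dose, against 19.8%. At an unadjusted p below 0.05 edgeR gave 2 at the lower dose (Il4 and Csf2) and 2 at the higher dose (Il21 and Tgfb1), and DESeq2 called 0 at each dose but gave an adjusted p for 1 of the 10 genes at the lower and 8 at the higher dose. The difference for Csf2 at the lower dose, CD8+ minus CD4+, was -0.77 ± 0.25 (edgeR adjusted p = 0.0846), and it was called without lower dose pool 2 (-1.01) or saline pool 1 (-0.99). The difference for Tgfb1 at the higher dose was -0.17 ± 0.06 (edgeR adjusted p = 0.0516), and -0.24 under library size scaling (adjusted p = 0.00534), and it was called without lower dose pool 1 (-0.18) or 3 (-0.18) or higher dose pool 1 (-0.21). For Ifng at the higher dose it was -0.37 ± 0.21, and -0.67 without saline pool 1, where it was called. Il17a was called in the other direction without saline pool 3 (edgeR adjusted p = 0.0343), with no UMI in CD4+ T cells at the higher dose. With saline, CD8+ T cells had more Ifng than CD4+ T cells (0.44 ± 0.13, edgeR adjusted p = 0.00851) and less of 8 other genes, all but Il17a, against 40.4% of genes called, 21.5% higher and 18.9% lower (19.0% and 21.2% under library size scaling). The Ifng difference was 0.75 without saline pool 1 and no longer called without saline pool 2 (0.32) or 3 (0.28), and that of Il10 was not called without saline pool 1 (-1.86) or 2 (-1.73). Il17a was called lower without saline pool 3, which held 15 of its 16 CD8+ UMIs. The differences ranged from -3.75 for Il2 and -3.17 for Il21 to -0.20 for Tgfb1.

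Small clusters held a larger share of the UMIs of Ifng, Csf2 and Il2 than of the cells. The CD4+ cluster C7, named CD4 CTL, held 4.36% of saline cells but 35.1% of the Ifng UMIs, 52.5% of the Csf2 UMIs and 61.5% of the Il2 UMIs. With lower dose CSA these shares were 32.7%, 69.3% and 71.7% from 5.56% of cells, and with higher dose CSA 19.4%, 27.9% and 53.1% from 4.83% of cells. Over all groups 5 cytotoxic markers summed to 1290 CPM in C7, below C0 (1923), C1 (1537), C3 (1393) and C5 (1304). Of these markers 1 was highest in C7. Il21 was spread more widely. With saline 24.8% of its UMIs came from the cycling cluster C6, 21.5% from the follicular helper cluster C4, 16.6% from C7 and 15.7% from the effector cluster C0. C4 held 18.1% of CD4+ T cells with saline, 6.37% with lower dose and 1.47% with higher dose CSA, and C6 held 10.9%, 6.10% and 1.11%. Of the 56 Il4 UMIs with saline, 39.3% came from the Tcf7hi precursor-like cluster C2 and 28.6% from C4. The CD8+ cluster C8, named exhausted, held 2.31% of saline cells, 29.4% of Ifng UMIs and 49.3% of Csf2 UMIs, and with higher dose CSA 3.51% of cells, 18.2% of Ifng UMIs and 9.68% of Csf2 UMIs. Over all groups 4 exhaustion markers summed to 796 CPM in C8, below C4 (1324) and C5 (1010), and 0 of the 4 were highest in C8.

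**Figure D3:**
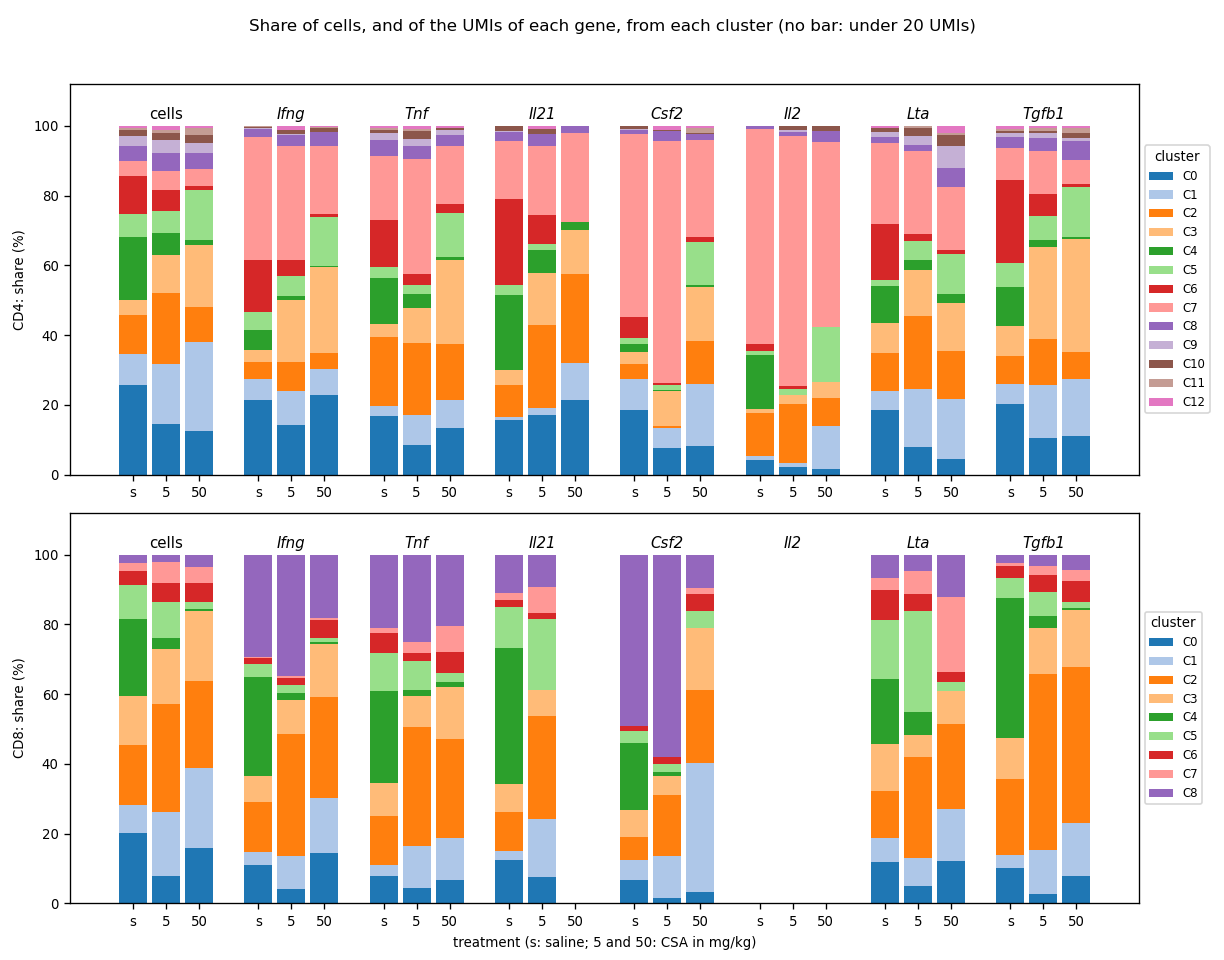
Percent of cells and of each gene's UMIs that came from each of the authors' clusters, by treatment and lineage (stacked bars; no bar where a gene had under 20 UMIs). CD4 C7 and CD8 C8 take a larger share of Ifng and Csf2 UMIs than of cells.

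The clusters were made from these cells and genes, so no cluster was tested against another, and levels are given with CPM by the library size of the cluster. In CD4 C7 Ifng stood at 566 ± 408 CPM with saline, 253 ± 124 with lower dose and 139 ± 64.1 with higher dose CSA (SD, n = 3 pools), and 1 saline cell held 183 of 501 UMIs. In the effector cluster C0 it stood at 101 ± 3.28, 95.4 ± 26.9 and 92.5 ± 13.6 CPM. The naive cluster C9 had 11.3 ± 12.8, 7.10 ± 6.74 and 1.93 ± 3.34 CPM, from 7 UMIs in all. In CD8 C8 Ifng stood at 1696 ± 939 CPM with saline, 1250.2 ± 1097 with lower dose CSA (2 pools) and 208 ± 24.0 with higher dose CSA. Csf2 in CD4 C7 was at 339.7 ± 217, 481 ± 253 and 44.3 ± 48.1 CPM, and in CD8 C8 at 207 ± 65.6, 245 ± 1.54 and 5.67 ± 0.471 CPM. The C8 level at the higher dose rested on 6 UMIs in 124 cells, against 103 UMIs in 107 saline cells. Il21 in the follicular helper cluster C4 was at 101 ± 12.9 CPM with saline and 107 ± 16.5 with lower dose CSA, and had 1 UMI in 45 cells with higher dose CSA. Lta in the naive cluster C9 had 2 UMIs in 110 cells with saline, 4 in 105 with lower dose and 17 in 94 with higher dose CSA (9.88 ± 8.85, 11.8 ± 4.63 and 50.8 ± 13.4 CPM). In the naive cluster C7 of CD8+ T cells these counts were 2 in 115, 4 in 156 and 16 in 161 cells. The summed B cell markers were also higher with higher dose CSA, and their part in the Lta counts was not tested.

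**Figure D4:**
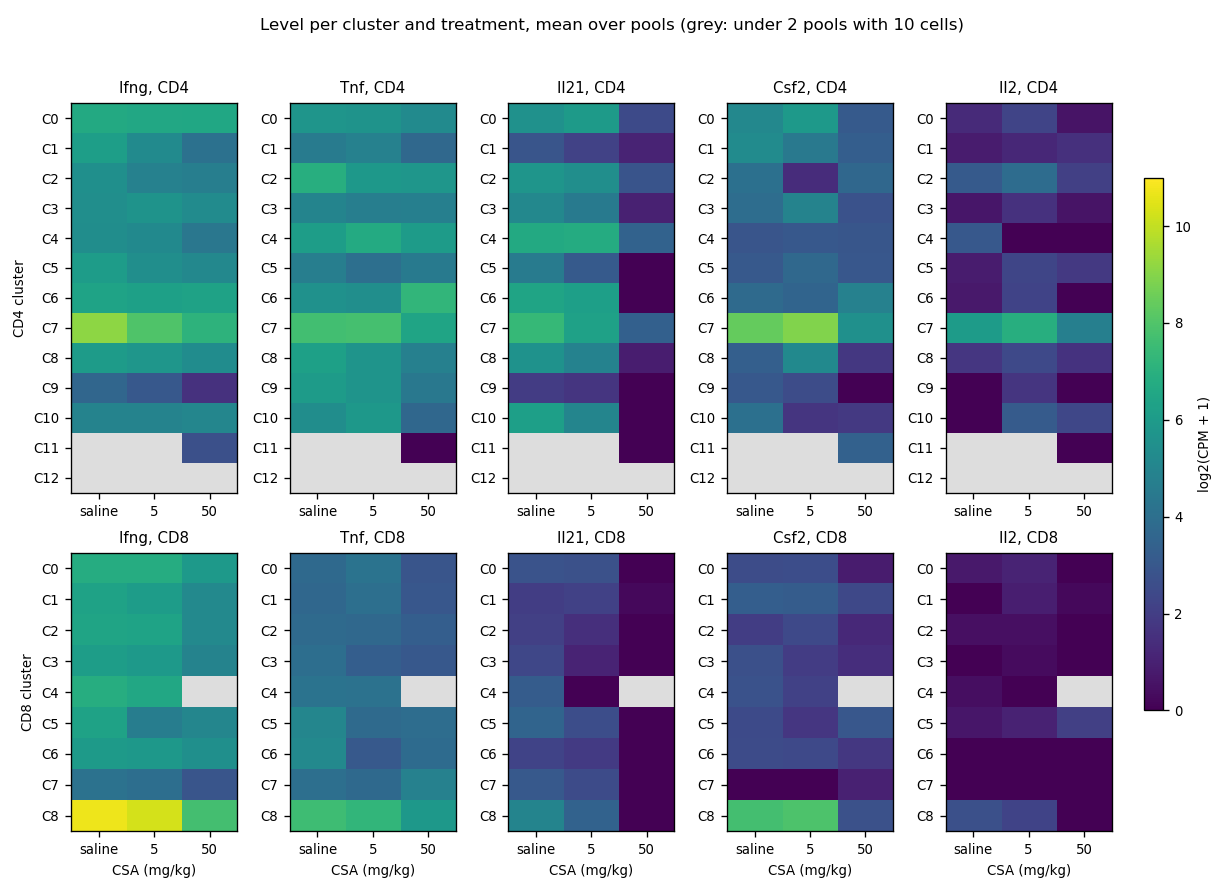
Mean level of Ifng, Tnf, Il21, Csf2 and Il2 on a log2(CPM + 1) scale in each of the authors' clusters, by treatment; grey fields have under 2 pools with 10 cells. CD4 C7 and CD8 C8 hold high Ifng and Csf2 with saline and lower dose CSA and much less Csf2 with higher dose CSA.

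Within clusters the pools were tested again, in each cluster with at least 10 cells in 2 or more pools per group. Over 11 CD4+ clusters, 41 tests of members at the lower dose gave 2 called higher and 2 lower, against 13.0% of all tests of genes in these clusters called, 7.49% higher and 5.53% lower. At the higher dose 41 tests gave 3 higher and 15 lower, against 30.2% called, 14.8% higher and 15.4% lower. Between the doses 41 tests gave 1 higher and 14 lower, against 13.2% called, 6.06% higher and 7.17% lower. Il21 was lower with higher dose CSA in 6 of these clusters (C0, C2, C3, C4, C6 and C7). In C7 its change was -3.70 ± 0.41 (edgeR adjusted p = 1.21e-07), in C0 -2.88 ± 0.39 and in C3 -4.63 ± 0.61, while C6 had 226 UMIs with saline and none in 34 cells with higher dose CSA. In C4 the call was lost without higher dose pool 1 (-2.45), and the 1 UMI of the higher dose was in pool 3. Csf2 was lower in C7 (-2.48 ± 0.55, edgeR adjusted p = 9.54e-04, and -3.72 without higher dose pool 1), C0 (-1.64) and C1 (-2.03, lost without saline pool 2 at -1.09). Ifng was lower in C1 (-1.98 ± 0.26, edgeR adjusted p = 8.45e-08) and in C7 (-1.66 ± 0.40, adjusted p = 0.00221), and the latter was lost without saline pool 1 (-0.90). Tnf was lower in C8 (-1.47, lost without higher dose pool 2 at -1.13), C7 (-0.90, lost without saline pool 3 at -0.53) and C2 (-0.81, lost without higher dose pool 1 at -0.57 and -1.55 without pool 3). Il4 was lower in C2 (-3.13, from 22 UMIs with saline and 2 with higher dose CSA, both in pool 2, and lost without saline pool 2 or higher dose pools 1 and 3, at -2.75, -2.73 and -2.29). Between the doses the falls were in 5 clusters for Il21, 4 for Csf2, 2 for Tnf and 1 each for Ifng, Il2 and Il4. Csf2 in C7 changed by -3.39 ± 0.49 (edgeR adjusted p = 2.76e-05), Tnf in C7 by -1.27 and Ifng in C1 by -1.18. Il2 in C7 changed by -2.15 ± 0.47 (edgeR adjusted p = 0.00337), lost without lower dose pool 3 (-1.30) and -3.74 without higher dose pool 3.

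The called rises against saline within CD4+ clusters depended on single pools or on the scaling. Csf2 in C0 and Il2 in C7 were higher at the lower dose by 0.92 ± 0.33 and 1.26 ± 0.42 (edgeR adjusted p = 0.0473 and 0.0321), and under library size scaling by 0.65 and 0.94, which were not called. Without lower dose pool 3 the Il2 change in C7 was 0.43, and without saline pools 1 and 2 it was 1.33 and 1.10, none of them called. The Csf2 change in C0 was 0.46 without saline pool 2 and 0.63 and 0.70 without lower dose pools 1 and 2, and 0.89 and 0.90 without higher dose pools 1 and 2, none called, and 1.43 without lower dose pool 3. Tgfb1 was higher with higher dose CSA in C0 (0.32, but -0.15 under library size scaling) and in C8 (0.60, and 0.31), and the C0 call was lost without saline pool 1 (0.25) or higher dose pool 1 (0.30) or 2 (0.29) and the C8 call without saline pool 3 (0.62) or higher dose pool 2 (0.57). Lta in C2 (1.13 ± 0.42, edgeR adjusted p = 0.0476) was called in 1 of the 9 fits without 1 pool, that without saline pool 2 (1.73), and lay between 0.85 (without saline pool 1) and 1.23 (without higher dose pool 2) in the rest. Between the doses the called rise was Tgfb1 in C2 (0.60 ± 0.14, edgeR adjusted p = 0.00156, and 0.55 under library size scaling), and it was called without any 1 pool. The called falls at the lower dose were Tnf in C2 and Il21 in C7. Tnf in C2 changed by -0.95 ± 0.19 (edgeR adjusted p = 5.57e-04) and kept its call without each pool. Il21 in C7 changed by -0.79 ± 0.27 (edgeR adjusted p = 0.0353), and the fits without saline pool 2 or 3 or any lower dose pool lost the call, with changes from -0.86 to -0.57.

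Among CD8+ clusters, 26 tests of members in 9 clusters at the lower dose gave none higher and 1 lower, against 20.4% of all tests called and 9.46% lower. At the higher dose 23 tests over 8 clusters gave 1 higher and 8 lower, against 43.4% called, 21.3% higher and 22.1% lower. Between the doses 23 tests gave none higher and 7 lower, against 14.4% called, 6.96% higher and 7.44% lower. With higher dose CSA Ifng was lower in C8 (-2.61 ± 0.34, edgeR adjusted p = 1.11e-06), in C1 (-0.96), in C2 (-0.88) and in C3 (-0.76), and each call held without any 1 pool. Between the doses Ifng was lower in these 4 clusters and in C0 (-0.66, lost without lower dose pool 2 at -0.57 or 3 at -0.70 or higher dose pool 2 at -0.49), and Csf2 and Tnf in C8. In C8 Csf2 changed by -4.66 ± 0.40 (edgeR adjusted p = 7.77e-10) and Tnf by -1.31 ± 0.27 (adjusted p = 4.87e-04). The summed level of 4 exhaustion markers over all CD8+ T cells was 1101 CPM with saline, 682 with lower dose and 162 with higher dose CSA, while C8 held a larger share of cells at the higher dose, and whether C8 cells are alike between groups was not tested. Il21 and Il17a in C8 were at 0 UMIs with higher dose CSA and were called, the Il17a call resting on 14 UMIs of 1 saline cell. The lower dose call was Ifng in the Tcf7hi cluster C5 (-1.21 ± 0.36, edgeR adjusted p = 0.00839), lost without saline pool 1 (-0.55). The called rise was Tgfb1 in the cycling cluster C2, 0.28 under TMM and -0.09 under library size scaling.

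Because cluster sizes also differed between groups, levels were recomputed with the saline share of each cluster, on the scale of library size CPM. With higher dose CSA, Il21 in CD4+ T cells then lay at -4.06 on the log2 scale against saline, and at -4.78 without the correction. Csf2 lay at -1.72 and -1.93, and Ifng at -0.93 and -1.22. Tnf moved more, from -1.11 to -0.32, as did Lta, from 0.21 to 0.93, but their pools then spread widely. With the saline shares the higher dose pools stood at 51.8 ± 23.4 CPM for Tnf and 20.5 ± 8.82 for Lta (SD, n = 3 pools). Without the correction these values were 29.8 ± 4.77 and 12.5 ± 1.36. No minimum of cells was set here, so clusters with few higher dose cells, such as C4 and C6, carried their full saline share. At the lower dose the Il21 difference was -0.84 without and -0.19 with the saline shares. For CD8+ T cells with higher dose CSA, Ifng lay at -1.65 with and -1.59 without the correction, and Tnf at -0.30 and -0.95. With equal cluster shares the mean higher dose Tnf differences were smaller in both lineages. The pools behind these means ranged from 34.4 to 78.5 CPM in CD4+ and from 13.0 to 23.5 CPM in CD8+ T cells. The higher dose differences of Ifng, Csf2 and Il21 in CD4+ T cells kept most of their size. Csf2 in CD4+ T cells at the lower dose went from 0.72 to 0.43. These values have no test.

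The UMIs of Ifng and Csf2 were concentrated in few cells. The 1% of CD4+ T cells with most Ifng UMIs held 40.1% of them with saline, 34.7% with lower dose and 29.6% with higher dose CSA, and in CD8+ T cells 35.7%, 46.1% and 18.9%. For Csf2 in CD4+ T cells these shares were 69.4%, 75.7% and 51.0%. By contrast the top 1% of CD4+ T cells held 8.16%, 8.59% and 6.82% of Tgfb1 UMIs. Cells with 10 or more Ifng UMIs numbered 14 of 4058 CD4+ T cells with saline, 12 of 2969 with lower dose and 6 of 3064 with higher dose CSA, and in CD8+ T cells 24 of 4639, 19 of 2662 and 4 of 3532. Cells with 10 or more Csf2 UMIs numbered 13, 22 and 2 among CD4+ T cells. Depth per cell was greatest in the higher dose group, where such cells were fewest.

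To set depth equal, each cell was thinned to 2000 UMIs, which left out 395 CD4+ and 121 CD8+ T cells with saline, 452 and 83 with lower dose and 80 and 8 with higher dose CSA. The share of CD4+ T cells with an Ifng UMI was then 11.5% ± 1.42 with saline, 8.48% ± 0.457 with lower dose and 6.24% ± 0.703 with higher dose CSA (SD, n = 3 pools), and 16.6%, 15.1% and 14.9% without thinning. Naive cells of cluster C9, which should make no interferon gamma, had a thinned share of 3.70% (exact 95% interval 0.452 to 12.7), 3.12% (0.649 to 8.86) and 0% (0 to 4.35). Their median depths before thinning were 1981, 3216 and 3144.5 UMIs, against 3097, 4396 and 5979.5 over all CD4+ T cells. The saline and lower dose shares lay within these intervals, which rest on 2 of 54 and 3 of 96 naive cells and are too wide to separate them. The higher dose share lay above its upper limit, from 0 of 83 naive cells with a UMI. Before thinning, naive cells held 3, 3 and 1 Ifng UMIs. That was 11.9, 8.47 and 2.87 CPM, against 94.9, 63.1 and 43.0 CPM over all CD4+ T cells without the TEa mark. The share with an Il21 UMI was 7.86% ± 0.726 with saline, 4.86% ± 0.566 with lower dose and 0.396% ± 0.247 with higher dose CSA, and 0 in the naive cells of each group. The share with a Tnf UMI was 9.48% ± 1.79 with saline, 7.62% ± 0.933 with lower dose and 5.21% ± 0.819 with higher dose CSA. Naive cells had 5.56% (exact 95% interval 1.16 to 15.4), 8.33% (3.67 to 15.8) and 4.82% (1.33 to 11.9), so Tnf shares did not stand clear of those of naive cells. Naive cells held 19, 17 and 9 Tnf UMIs before thinning (75.4, 48.0 and 25.8 CPM), and whether they make Tnf was not tested. Over the 3 ordered groups an exact two-sided Jonckheere-Terpstra permutation test of pools gave p = 0.00119 for Ifng, Tnf and Il21 in CD4+ T cells, the smallest p that the 1680 assignments can give, with every saline pool above every lower dose pool and these above every higher dose pool. Of the 10 genes tested the other 7 missed the threshold, among them Csf2 (exact p = 0.0738) and Lta (exact p = 0.123). Without thinning Il21 passed it, Ifng and Tnf did not, and Lta and Tgfb1 did.

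Among CD8+ T cells the thinned share with an Ifng UMI was 14.9% ± 1.18 with saline, 10.6% ± 2.23 with lower dose and 7.73% ± 0.305 with higher dose CSA, and 27.8%, 24.8% and 21.3% without thinning. Naive cells of cluster C7 had 4.55% (exact 95% interval 1.49 to 10.3), 1.96% (0.406 to 5.62) and 2.48% (0.681 to 6.24), at median depths of 3499, 4514.5 and 4995 UMIs against 4108, 6121.5 and 7183. The Tgfb1 share was 24.9% ± 0.545 with saline, 20.3% ± 0.506 with lower dose and 19.1% ± 0.981 with higher dose CSA after thinning and 46.2%, 49.3% and 52.8% without it, so its order over the doses was opposite at equal and at given depth, and no change is read from it. The exact two-sided trend test gave p = 0.00119 for Ifng and Il21, 0.00357 for Tgfb1 and 0.00952 for Tnf, of 10 genes tested, all toward lower shares at the higher dose, and 0 genes were called without thinning. The Il21 share was 1.01% ± 0.283 with saline, 0.446% ± 0.130 with lower dose and 0.0259% ± 0.0448 with higher dose CSA. Naive cells had 0% (exact 95% interval 0 to 3.30), 1.31% (0.159 to 4.64) and 0% (0 to 2.27). Il21 shares of CD8+ T cells therefore did not stand clear of those of naive cells. The Tnf share, 3.49% ± 0.591 with saline, 2.81% ± 0.359 with lower dose and 1.90% ± 0.466 with higher dose CSA, lay near that of naive cells, 2.73% (exact 95% interval 0.566 to 7.76), 3.27% (1.07 to 7.46) and 6.83% (3.46 to 11.9), and is not read as a change.

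**Figure D5:**
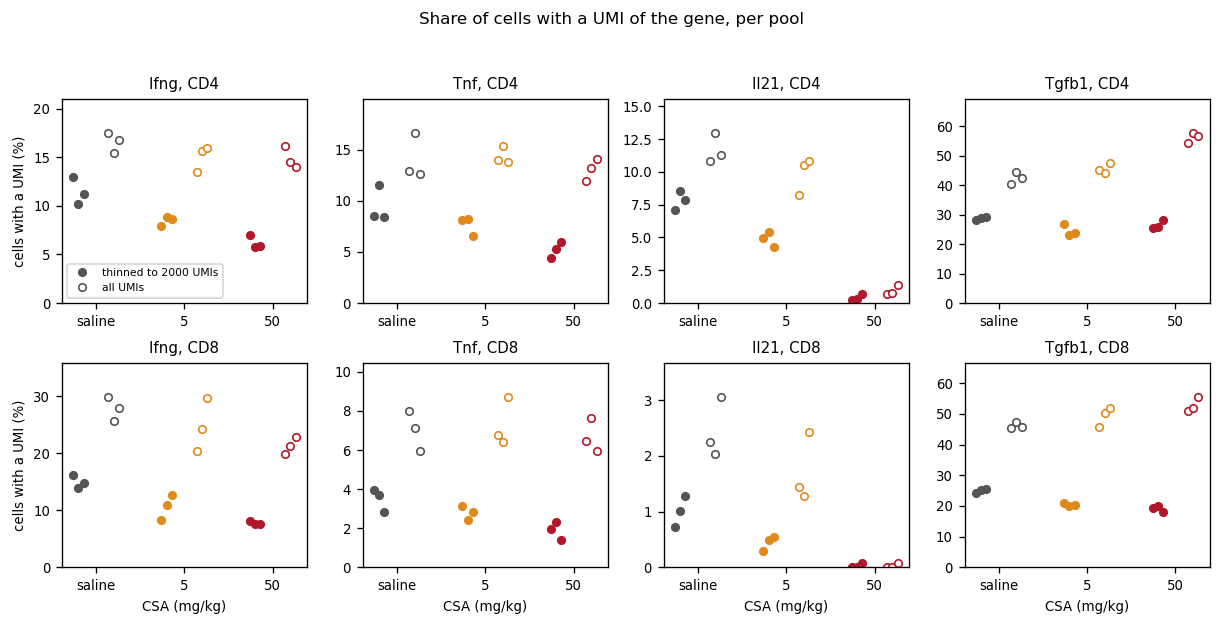
Percent of cells with at least 1 UMI of Ifng, Tnf, Il21 or Tgfb1 in each pool (filled, cells thinned to 2000 UMIs; open, all UMIs), by treatment, for CD4+ and CD8+ T cells. Thinned Ifng and Il21 shares step down with dose, while the open points of Tgfb1 step up.

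Pairs of cytokines were also read in single thinned cells, with exact 95% binomial intervals in brackets. Among CD4+ T cells with a Tnf UMI, an Ifng UMI was found in 17.7% (13.9 to 22.1), 15.3% (10.5 to 21.3) and 16.7% (11.2 to 23.5) with saline, lower and higher dose CSA, against 10.7%, 7.95% and 5.66% of those without Tnf, and the share was higher in 3 of 3 pools of each group. Among those with a Csf2 UMI it was 27.3% (19.8 to 35.9), 25.3% (16.6 to 35.7) and 12.8% (4.30 to 27.4), against 10.7%, 7.90% and 6.15%. That share was higher in 3, 3 and 2 of 3 pools. In CD8+ T cells the share with Ifng among cells with Csf2 was 30.2% (18.3 to 44.3), 42.9% (24.5 to 62.8) and 0% (0 to 28.5), against 14.7%, 10.6% and 7.74%, with 0 of 11 such cells at the higher dose. Among CD4+ T cells with an Il21 UMI, Ifng was found in 17.9% (13.7 to 22.8), 19.8% (13.1 to 28.1) and 33.3% (9.92 to 65.1), the last from 12 cells, against 10.8%, 7.93% and 6.12%. Not every pair went this way. With lower dose CSA, Il2 was found in 1.65% (0.201 to 5.84) of CD4+ T cells with Il21, against 1.71% without. With saline it was 1.72% (0.562 to 3.98) against 0.623%. In CD8+ T cells Ifng was found in 1 of 4, 0 of 5 and 0 of 1 cells with Il2. The other pairs read are not reported here. Intervals cover counting error only, and cells of 1 cluster share their state, so no test was made.

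TEa cells, of 1 known alloreactive receptor, were kept out of the sums and are given as counts, without a test. Intervals are exact Poisson intervals of the counts. There were 123 with saline, 130 with lower dose and 27 with higher dose CSA. Their Ifng level was 41.5 CPM (95% interval 26.0 to 62.8) from 22 UMIs with saline, 118 CPM (95% interval 94.6 to 145) from 90 UMIs with lower dose CSA, 40 of them in 1 cell, and 13.1 CPM (95% interval 2.69 to 38.2) from 3 UMIs with higher dose CSA. The other CD4+ T cells pooled over each group stood at 94.9, 63.1 and 43.0 CPM. Tnf was at 77.3 (55.5 to 105), 111 (88.7 to 137) and 47.9 (23.9 to 85.7) CPM in TEa cells, against 64.5, 53.7 and 30 in the others. Il21 had 18, 16 and 0 UMIs, the last in 27 cells with an upper limit of 16.1 CPM, above the 2.25 CPM of the other CD4+ T cells, so a difference between them was not detectable at this depth. Csf2 had 3, 26 and 1 UMIs and Tgfb1 85, 115 and 31.

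Further lists of genes around the cytokines were read in the same fits, beside a median of all genes tested of -0.01 in CD4+ and 0.00 in CD8+ T cells at both doses and shares called of 51.7% and 60.2% at the lower and 70.5% and 74.0% at the higher dose. Where library size scaling is named, higher and lower calls are given for the lower and then the higher dose. Of 30 other T cell cytokines, higher dose CSA gave 5 higher, 8 lower and 7 not called of 20 tested (median 0.03) in CD4+ T cells, and 3 higher, 10 lower and 3 not called of 16 tested (median -1.0) in CD8+ T cells. Lower dose counts higher, lower and not called were 6, 2 and 12 of 20 (median 0.17) and 5, 2 and 9 of 16 (median 0.17). The other cytokines split under library size scaling into 2 higher and 8 lower, then 3 and 13, in CD4+ T cells and into 3 and 7, then 2 and 11, in CD8+ T cells, and the lower dose medians turned to -0.19 and -0.25. By the naming rule, the largest called falls at the higher dose in CD4+ T cells were Xcl1 (-4.23 ± 0.28), a chemokine for dendritic cells, and Tnfsf8 (-2.81 ± 0.14), the ligand of CD30, and in CD8+ T cells Xcl1 (-2.88 ± 0.52) and Tnfsf14 (-1.08 ± 0.12). The largest called rises were Mif (0.64, and 0.20 under library size scaling) and Ltb (0.20, and -0.24 under library size scaling) in CD4+ T cells, Ltb encoding the partner of lymphotoxin alpha on the cell surface, and Mif (0.92, and 0.39 under library size scaling) and Il16 (0.65, and 0.12 under library size scaling) in CD8+ T cells.

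Of 22 receptor genes of the 10 cytokines, higher dose CSA gave 3 higher, 10 lower and 4 not called of 17 tested (median -0.50) in CD4+ T cells and 4 higher, 11 lower and 0 not called of 15 tested (median -0.42) in CD8+ T cells. Lower dose counts were 2, 10 and 5 of 17 (median -0.23) and 1, 9 and 5 of 15 (median -0.32). Receptor genes split under library size scaling into 0 higher and 12 lower, then 0 and 13, in CD4+ and 0 and 14, then 0 and 12, in CD8+ T cells. Among them Tnfrsf1b (-1.42 ± 0.09), a receptor of tumour necrosis factor, and Il2ra (-0.95 ± 0.09), the high-affinity chain of the IL-2 receptor, were lower in CD4+ T cells, and so were Tnfrsf1b (-1.79 ± 0.07) and Il2ra (-0.99 ± 0.09) in CD8+ T cells. Tnfrsf1a (0.32, and -0.12 under library size scaling) and Il2rg (0.15, and -0.29 under library size scaling) were called higher in CD4+ T cells under TMM scaling and turned under the other. In CD8+ T cells they turned too, Tnfrsf1a (0.41, and -0.12 under library size scaling) and Il2rg (0.19, and -0.34 under library size scaling). Of 8 genes of release and activation, such as proteases that free or mature cytokines, 4 were lower and 1 higher of 5 tested in each lineage at the higher dose, with medians of -0.56 and -0.94. The falls were led by Furin (-1.50 ± 0.09) and Adam10 (-1.50 ± 0.07) in CD4+ T cells and Adam10 (-1.64 ± 0.06) and Furin (-0.99 ± 0.10) in CD8+ T cells, and the rise was Nrros (0.57, and 0.13 under library size scaling) and Nrros (0.65, and 0.12 under library size scaling), in that order of lineages. Lower dose counts were 0, 4 and 1 of 5 (median -0.40) and 1, 4 and 0 of 5 (median -0.67), and library size scaling gave 0 higher and 5 lower, then 0 and 4, in each lineage.

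Of 31 transcription factors of cytokine genes, higher dose CSA gave 6 higher, 19 lower and 5 not called of 30 tested (median -0.61) in CD4+ T cells and 7 higher, 17 lower and 6 not called of 30 tested (median -0.43) in CD8+ T cells, and lower dose CSA 4, 16 and 10 of 30 (median -0.22) and 5, 16 and 9 of 30 (median -0.34). These factors split under library size scaling into 2 higher and 23 lower, then 2 and 25, in CD4+ and 3 and 24, then 2 and 21, in CD8+ T cells. In CD4+ T cells Fosb (-1.78 ± 0.12), an AP-1 subunit, and Ikzf3 (-1.77 ± 0.09) led the falls, and Jund (0.83, and 0.40 under library size scaling) and Gata3 (0.53, and 0.09 under library size scaling) the rises. In CD8+ T cells Prdm1 (-1.28 ± 0.09) and Nfatc1 (-1.22 ± 0.06), which encodes an NFAT protein, led the falls, and Jund (1.10, and 0.57 under library size scaling) and Junb (0.75, and 0.22 under library size scaling) the rises. Of 14 genes of cytokine mRNA decay and translation the higher dose gave 2 higher, 7 lower and 4 not called of 13 tested (median -0.61) and 3 higher, 7 lower and 3 not called of 13 tested (median -0.25), and the lower dose 1, 6 and 6 of 13 (median -0.13) and 1, 5 and 7 of 13 (median -0.05). Decay genes split under library size scaling into 0 higher and 12 lower at both doses in CD4+ and 0 and 12, then 2 and 11, in CD8+ T cells. Zfp36 (0.49, and 0.05 under library size scaling) in CD4+ and Zfp36 (0.87, and 0.34 under library size scaling) in CD8+ T cells, which encodes a protein that speeds decay of cytokine mRNAs, was among the rises. Zc3h12d (-1.12 ± 0.08) and Zc3h12a (-1.02 ± 0.09) in CD4+ and Khsrp (-1.17 ± 0.06) and Zc3h12d (-1.04 ± 0.10) in CD8+ T cells were among the falls.

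Of 23 genes that interferon gamma is known to raise, the higher dose gave 4 higher, 15 lower and 3 not called of 22 tested (median -0.38) in CD4+ and 5 higher, 15 lower and 2 not called of 22 tested (median -0.50) in CD8+ T cells, and the lower dose 5, 7 and 10 of 22 (median -0.02) and 8, 6 and 8 of 22 (median 0.04). The interferon gamma genes split under library size scaling into 3 higher and 14 lower, then 3 and 17, in CD4+ and 4 and 13, then 2 and 17, in CD8+ T cells, and the lower dose median in CD8+ T cells turned to -0.39. Gbp5 (-1.48 ± 0.10) and Irgm2 (-1.23 ± 0.09), GTPases of cell-autonomous defence, led the falls in CD4+ T cells, and Nlrc5 (-0.89 ± 0.07), an activator of MHC class I genes, was among the falls in CD8+ T cells. The called rises were led by the immunoproteasome gene Psmb8 (0.72, and 0.28 under library size scaling) with Irf8 (0.69, and 0.25 under library size scaling) in CD4+ T cells, and by Psmb10 (0.83, and 0.30 under library size scaling) and Psmb8 (0.64, and 0.11 under library size scaling) in CD8+ T cells. Of 12 genes of the IL-2 and STAT5 response the higher dose gave 6 higher, 5 lower and 1 not called of 12 tested (median 0.13) and 4 higher, 5 lower and 3 not called of 12 tested (median -0.07), and the lower dose 4, 1 and 7 of 12 (median 0.17) and 7, 1 and 4 of 12 (median 0.29). Under library size scaling these 12 genes split into 1 higher and 7 lower, then 3 and 7, in CD4+ and 2 and 4, then 2 and 7, in CD8+ T cells, and the lower dose medians turned to -0.19 and -0.14. Bcl2 (-0.98 ± 0.07), a survival gene, was lower in CD4+ T cells, as was Bcl2 (-1.05 ± 0.11) in CD8+ T cells, and Ccnd2 (0.84, and 0.40 under library size scaling) and Ccnd2 (1.26, and 0.73 under library size scaling) were higher, in that order of lineages. Under library size scaling each of these list medians at the higher dose was lower, from -1.53 for the other cytokines in CD8+ T cells to -0.31 for the IL-2 and STAT5 response in CD4+ T cells, and the other cytokines in CD4+ T cells were at -0.41.

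Last, genes with the most similar profile were listed by Pearson's r of log2(CPM + 1) over the means of cluster and treatment, 36 points and 6046 genes in CD4+ and 26 points and 5884 genes in CD8+ T cells. Points of a capture share a library, so r is given as a description. For Ifng these were Ccl3 (0.853), Il12rb2 (0.816) and Zap70 (0.791) in CD4+ and Pop1 (0.885), Ccl3 (0.882) and Rbpj (0.880) in CD8+ T cells. Ccl3, which encodes an inflammatory chemokine, was in both lists. For Tnf they were Fam98b (0.803), Mthfd1l (0.769) and Abce1 (0.747) in CD4+ and Znhit6 (0.891), Mybbp1a (0.876) and Nop14 (0.866) in CD8+ T cells. For Il21 in CD4+ T cells they were Ptpn11 (0.911), Cd200 (0.908) and Tox (0.889), and for Csf2 Ifng (0.747), Tnfrsf9 (0.723) and Nfkbib (0.718). For Lta in CD4+ T cells they were Ndufaf4 (0.720), Myc (0.703) and Prmt7 (0.697), and for Tgfb1 Eif4h (0.789), Kdelr2 (0.788) and Clptm1 (0.781) in CD4+ and P4hb (0.869), Cyp51 (0.857) and Hspa14 (0.852) in CD8+ T cells.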

How the data were processed

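Single-cell RNA (10x 5′) was measured in 3 captures, 1 per treatment. The submitters' processing notes name Cell Ranger, Seurat 3.0.0 and mm10, with no role or order. The gene annotation and the use of strand are not given in the sources used here. The authors deposited whole UMI counts per gene and cell without normalization, whole hashtag counts, the fraction of mitochondrial UMIs of each cell, and their own filtered cells, lineages, pools and clusters. The pools of mice come from the hashtag column of the deposited table of cells, since each treatment is 1 sample in the labels. CD8+ clusters, numbered 1 to 9 in the table, were matched to the study's names C0 to C8. Numbers 8 and 9 were taken as C0 and C1, and numbers 1 to 7 as C2 to C8 in order. No doublet caller was run, and cells with 2 strong hashtags were left out as an alternative.

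Counts of the cells without the TEa mark were summed per pool and lineage, and per pool and cluster where the pool had at least 10 cells of it (20 as an alternative). They were tested with edgeR 4.0.16 (quasi-likelihood test, filterByExpr, TMM, Benjamini-Hochberg adjustment over all genes tested, limma 3.58.1, R 4.3.3) in 1 fit of the 3 groups, in which the CSA comparisons share their saline pools. The lineages were compared with the pool as a block, since CD4+ and CD8+ T cells of a pool come from the same mice. Shares of cells were compared after thinning to 2000 UMIs, with Python 3.11.15, numpy 2.4.6, pandas 2.3.3 and scipy 1.17.1. Calls of shares rest on Benjamini-Hochberg adjustment over the 10 genes of a lineage. Alternatives were DESeq2 1.42.0, library size scaling, no filter, a replicate block, other cells, other depths and leaving out each pool. The edgeR fits of the groups and of the lineages were tested on simulated counts, and the other steps were not. Intervals cover counting error only.

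The 10 genes and the further lists (other cytokines, receptors, release and activation, transcription factors, mRNA decay and translation, interferon gamma response, IL-2 and STAT5 response) were chosen with earlier results of these data known. All 10 genes are named. Of each further list, the 2 largest called rises and falls at 50 mg/kg among genes with a mean of at least 20 CPM could be named, and for each of the 10 genes with at least 10 CPM, the 3 genes (at least 20 CPM) with the most similar profile over clusters and groups of at least 30 cells. Some genes that these rules name are not reported here.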

Additional observations from a re-analysis of the deposited data

How the results depend on the processing

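Calls at the higher dose changed least. In CD4+ T cells 8 of the 10 genes were called against saline at the higher dose, and 6 to 8 when 1 pool was left out. Between the doses 7 were called, and 6 to 7 without 1 pool. In CD8+ T cells 4 were called against saline, and 4 without any 1 pool, and between the doses 4, and 3 to 5. The lower dose calls were less stable, and the cause was not tested. Of 7 in CD4+ T cells, 4 were left in DESeq2, 4 without the cell with most UMIs of the gene in each pool, an alternative chosen after seeing the data, and 4 to 7 without 1 pool. Of 3 in CD8+ T cells there were 1 in DESeq2, 5 under library size scaling, 0 over cells outside the cycling clusters and 1 to 3 without 1 pool. Library size scaling turned 8 changes against saline: Tgfb1 to -0.21 at both doses and Tnf to -0.25 at the lower dose in CD4+ T cells, and in CD8+ T cells Tgfb1 to -0.35 and -0.45 at the lower and higher dose, Ifng to -0.37 and Tnf to -0.36 at the lower dose and Lta to -0.02 at the higher dose. No difference between the lineages was called at the lower dose, against 1 with no filter on low counts (Csf2) and 0 to 1 without 1 pool. At the higher dose 0 were called, against 1 under library size scaling (Tgfb1), 1 with no filter (Ifng), 1 with the TEa cells kept (Tgfb1), 1 without the top cells (Il21) and 0 to 1 without 1 pool. Between the lineages with saline 9 were called, and 7 to 9 without 1 pool. Within clusters, 37 calls in CD4+ T cells became 21 in DESeq2, where 24 of 123 tests had no adjusted p, 68 with no filter, where more genes are tested, and 37 to 45 without 1 pool. The 17 in CD8+ T cells became 26 under library size scaling, 29 with no filter and 12 to 19 without 1 pool. The 3 trends in shares of CD4+ T cells were 3 without any 1 pool. The 4 in CD8+ T cells were 0 without thinning, 2 with at least 2 UMIs as the limit, and 3 to 5 without 1 pool.

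Pools with the same hashtag number in different groups share only that number, since each pool holds other mice. The correlation of their deviations ranged from -0.0717 to 0.0388 in CD4+ and from -0.0557 to 0.0674 in CD8+ T cells. With this number as a replicate block, 6 of the 10 genes were called at the lower dose in CD4+ T cells in place of 7, and the other counts of this kind did not change. Without the pool as a block, 7 genes were called between the lineages with saline in place of 9.

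Depth limits Il2, Il4 and Il17a in CD8+ T cells, Il17a in CD4+ T cells and the clusters C4 and C6 at the higher dose, which hold few cells or UMIs.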
